A study of Mus musculus with 12 samples.

Results

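The genes described here are the 8 constant-region genes of the mouse immunoglobulin heavy chain, *Ighm*, *Ighd*, *Ighg3*, *Ighg1*, *Ighg2b*, *Ighg2c*, *Ighe* and *Igha*, chosen by symbol among the 47643 genes of a deposited expression table and read across all 12 libraries. Of the 8 genes, 7 were paired with an identifier of the table. *Ighd*, which encodes the IgD heavy chain, was not paired and is not analysed here. RNA had been sequenced from common lymphoid progenitors (CLPs), sorted from bone marrow of male mice between 27 and 32 weeks of age as lineage-negative cells with low Sca1, low c-Kit and IL7Rα. There were 4 mice per group and 1 library per mouse. WT mice had an intact *Firre* locus, ∆*Firre* (KO) mice lacked the whole locus with its promoter in all tissues, and *Firre* rescue mice carried the same deletion plus a *Firre* cDNA transgene. The transgene was driven by a tet-responsive element with a CMV minimal promoter and was switched on by a CAG-driven rtTA and a doxycycline diet. Regular chow is the diet given for the study's mice in general, and of these 3 groups only rescue is described as fed doxycycline. The ∆*Firre* allele had been backcrossed to C57BL/6J, and the transgene was made in C57BL/6J. The rtTA allele, carried here by rescue mice alone, came from a line whose strain name includes FVB. That line was kept by breeding to C57BL6/J.

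A heavy chain is made from a variable exon, assembled from V, D and J segments, joined to 1 of these constant genes. *Ighm* lies closest to the J segments and is used first. Class switch recombination later removes the DNA between the variable exon and a downstream constant gene, so that a B cell or plasma cell makes IgG, IgE or IgA in place of IgM. Constant genes can also be transcribed without a variable exon. CLPs are an early stage of the lymphoid lineage, at which heavy-chain assembly has barely begun.

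In the mouse build GRCm38.p6 (RefSeq annotation) all 8 are constant-region genes on chromosome 12. *Ighm* (ENSMUSG00000076617.9) spans positions 113418826 to 113422730, *Ighd* 113407535 to 113416324, *Ighg3* (ENSMUSG00000076615.3) 113357442 to 113361232 and *Ighg1* (ENSMUSG00000076614.7) 113326541 to 113330523. *Ighg2b* (ENSMUSG00000076613.3) spans 113304314 to 113307933, *Ighg2c* (ENSMUSG00000076612.7) 113287389 to 113288932, *Ighe* (ENSMUSG00000087642.2) 113269263 to 113273248 and *Igha* (ENSMUSG00000095079.6) 113256204 to 113260236. The identifiers of *Ighg2b* and *Ighg3* were named by their place among the neighbouring constant genes, and that of *Igha* from identifier and name pairs listed by the study.

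The 4 gamma genes are close relatives, and their hinge exon (exon 2) is shown because its length and cysteines tell them apart. The sequences are from the Gencode vM1 transcripts, with the in-frame cysteine codons, which encode the candidate inter-chain disulfide cysteines, in capitals.
Ighg3: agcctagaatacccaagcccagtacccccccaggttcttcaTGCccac
Ighg1: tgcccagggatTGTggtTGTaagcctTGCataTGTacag
Ighg2b: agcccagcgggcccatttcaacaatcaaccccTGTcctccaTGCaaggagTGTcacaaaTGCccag
Ighg2c: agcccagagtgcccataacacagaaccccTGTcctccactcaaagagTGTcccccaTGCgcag
The *Ighg3* hinge holds 1 cysteine codon in 48 bases, that of *Ighg1* 4 in 39, that of *Ighg2b* 4 in 66 and that of *Ighg2c* 3 in 63. Across the coding sequence *Ighg2b* and *Ighg2c* were 86.2% identical, whereas the other 5 pairs of gamma genes were 76.2% to 78.5% identical. The longest run shared by *Ighg2b* and *Ighg2c* had 78 bases and lay in exon 3, and is shown because reads falling wholly inside it could come from either gene.
Ighg2b and Ighg2c: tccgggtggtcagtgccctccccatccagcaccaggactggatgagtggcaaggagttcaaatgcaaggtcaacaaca
Of all 50-base windows of *Ighg2b*, 5.83% were also present in *Ighg2c*, and none were shared by any other pair. The split between these 2 genes is therefore less certain than that between the others.

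The deposited values were in TPM, a unit of transcript abundance scaled by gene length and by library total, so that levels can be set side by side between genes. Read totals recovered from the spacing of the TPM values were 10991162 to 18174980 in the WT libraries, 14372110 to 17598687 in the ∆*Firre* libraries and 25782476 to 32573024 in the rescue libraries. *Firre* was at 25.2 to 31.6 TPM in WT, at 0 in all 4 ∆*Firre* libraries and at 59.9 to 174 TPM in rescue. The lymphoid progenitor markers *Dntt*, *Flt3* and *Il7r* were present in every library, at no less than 4315, 506 and 353 TPM. The rescue libraries had a range of library numbers of their own, so that genotype and library series cannot be told apart in any comparison with them. The WT and ∆*Firre* libraries fell into 2 further ranges of library numbers, a lower one with WT mice 8 and 11 and ∆*Firre* mice 8 and 11, and a higher one with WT mice 6 and 10 and ∆*Firre* mice 9 and 12. Differences were tested with limma on log2(TPM + 1) over the 14479 genes with a mean of at least 1 TPM, with calls made where p, adjusted by the Benjamini-Hochberg method, did not exceed 0.1. Of the 7 members with values, 6 passed this filter and *Ighe*, at a mean of 0.711 TPM, did not. A gene could pass through 1 library alone.

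The libraries differed in isotype make-up chiefly through *Igha*. IgM sequence (*Ighm*) was abundant in every library. *Igha* transcripts reached or passed the *Ighm* level in most ∆*Firre* libraries, varied widely among WT libraries and were at most 52.2 TPM in rescue. The gamma genes were low, and which of them led changed from mouse to mouse. *Ighe* was close to 0 throughout.

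*Ighm* encodes the heavy chain of IgM and of the pre-B and B-cell receptors. In WT its level was 4959 TPM in mouse 6, 3123 in mouse 8, 2970 in mouse 10 and 5560 in mouse 11. In ∆*Firre* it was 3150 TPM in mouse 8, 4675 in mouse 9, 3752 in mouse 11 and 4885 in mouse 12. In rescue it was 2489 TPM in mouse 1, 2560 in mouse 2, 2595 in mouse 3 and 2347 in mouse 4. WT and ∆*Firre* overlapped over most of their range, and all 4 rescue libraries lay below all libraries of the other groups. The rescue values were also the most uniform, at 2498 ± 110 TPM (mean ± SD, n = 4), against 4153 ± 1302 in WT and 4116 ± 810 in ∆*Firre*.

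*Igha* encodes the heavy chain of IgA, the main antibody of mucosal secretions. In WT its level was 214 TPM in mouse 6, 2593 in mouse 8, 1261 in mouse 10 and 978 in mouse 11. In ∆*Firre* it was 3269 TPM in mouse 8, 4987 in mouse 9, 6392 in mouse 11 and 2268 in mouse 12. In rescue it was 26.1 TPM in mouse 1, 52.2 in mouse 2, 1.35 in mouse 3 and 1.83 in mouse 4. WT and ∆*Firre* overlapped through a single pair, since WT mouse 8 lay above ∆*Firre* mouse 12, and every rescue library lay below every other library. The lowest rescue value still rested on 38 recovered reads, against 2718 to 86591 reads in the WT and ∆*Firre* libraries. Because these are RNA pools of sorted cells, fewer cells carrying a transcript cannot be told apart from less transcript per cell.

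*Ighg2b*, which encodes the IgG2b heavy chain, was the only gamma gene with reads in every library. Its level was 10.2, 35.6, 159 and 19.6 TPM in WT mice 6, 8, 10 and 11. In ∆*Firre* mice 8, 9, 11 and 12 it was 41.3, 24.8, 69.7 and 13.7 TPM, and in rescue mice 1 to 4 it was 32.1, 177, 43.1 and 91.9 TPM. The 3 groups overlapped, with WT mouse 10 and rescue mouse 2 at the top.

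*Ighg1*, the IgG1 heavy chain, was high in only 2 libraries, WT mouse 10 at 198 TPM (3012 reads) and rescue mouse 1 at 166 TPM (3940 reads). The other 3 WT libraries were at 0.243, 4.83 and 0.587 TPM in mice 6, 8 and 11. The ∆*Firre* libraries were at 0.237, 0.386, 4.10 and 0 TPM in mice 8, 9, 11 and 12. The remaining rescue libraries were at 0, 0.0729 and 0 TPM in mice 2, 3 and 4. Where no read was counted, 3 reads would have given 0.104 to 0.207 TPM, so the high libraries stood far above the depth limit and the groups overlapped.

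*Ighg2c*, the IgG2c heavy chain of C57BL/6 mice, was high in ∆*Firre* mouse 8 alone, at 136 TPM (878 reads). The other ∆*Firre* libraries were at 0, 3.86 and 1.88 TPM in mice 9, 11 and 12. The WT libraries were at 0.952, 6.43, 0 and 0.328 TPM in mice 6, 8, 10 and 11, and the rescue libraries at 0.248, 2.03, 0.0713 and 0.0801 TPM in mice 1 to 4. In that ∆*Firre* library *Ighg2c* exceeded *Ighg2b*, its nearest relative in sequence, which had 539 reads. In rescue mouse 2 the order was the opposite, with 5289 reads of *Ighg2b* and 30 of *Ighg2c*.

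*Ighg3*, the IgG3 heavy chain, was also highest in ∆*Firre* mouse 8, at 62.9 TPM, with 0, 5.28 and 2.48 TPM in ∆*Firre* mice 9, 11 and 12. In WT mice 6, 8, 10 and 11 it was 18.9, 0, 9.15 and 0.402 TPM. In rescue mice 1 to 4 it was 1.01, 0, 0 and 3.24 TPM. All groups overlapped, and each held at least 1 library without a read. *Ighe*, the IgE heavy chain, ranged from 0 to 3.74 TPM in WT, from 0 to 1.65 TPM in ∆*Firre* and from 0 to 0.800 TPM in rescue. Its highest value rested on 18 reads (WT mouse 8), and 4 of the 12 libraries had none.

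**Figure D1:**
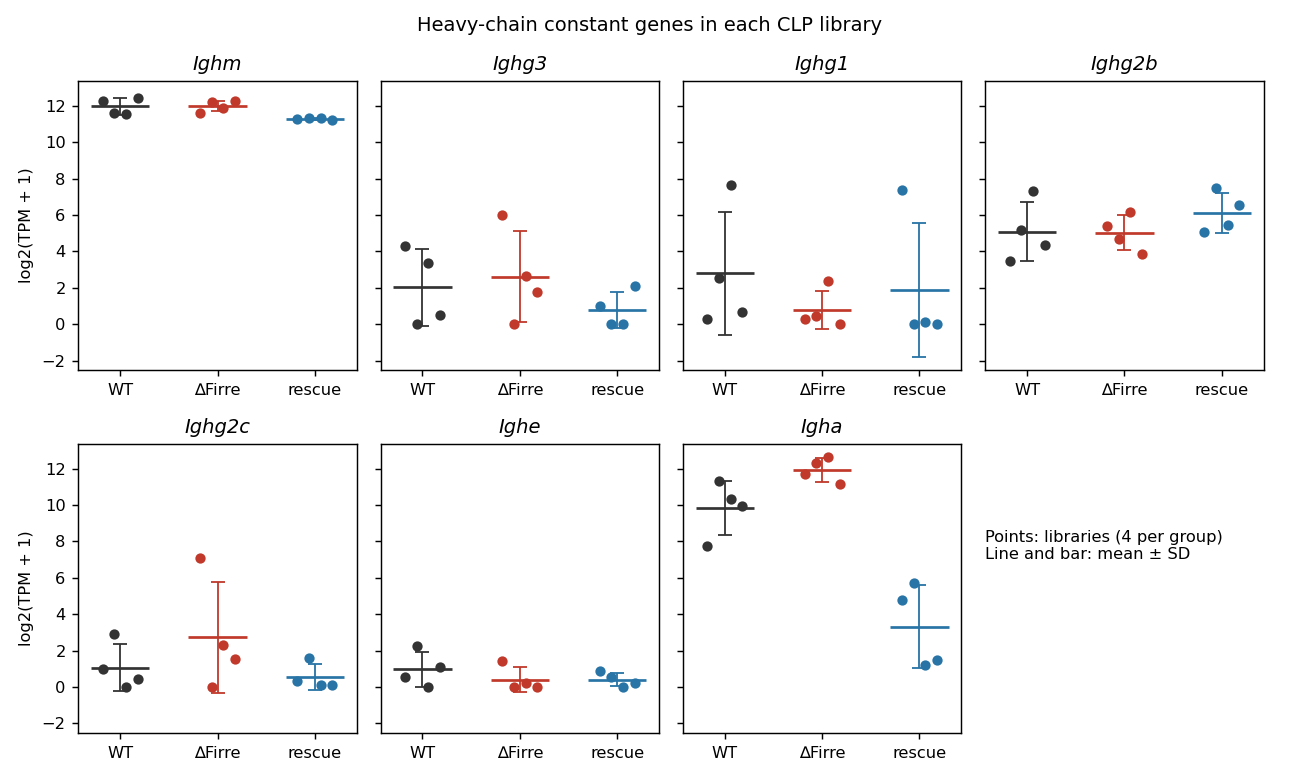
Levels of the 7 constant genes with values, as log2(TPM + 1) on a common vertical axis, in the 4 WT, 4 ∆Firre and 4 rescue libraries. Points are libraries, and lines and bars are the group mean ± SD. The rescue points lie below all others for Ighm and Igha, while Ighg1 and Ighg2c have single high libraries.

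Expressed as shares of the summed TPM of the 7 genes, *Ighm* made up 74.7% ± 18.7 (SD, n = 4) in WT, 50.1% ± 13.1 in ∆*Firre* and 94.4% ± 3.31 in rescue. *Igha* made up 22.9% ± 17.5, 48.7% ± 12.8 and 0.740% ± 0.865. The summed TPM itself was 4598 to 6560 in WT, 6661 to 10227 in ∆*Firre* and 2444 to 2792 in rescue, so the 3 ranges did not overlap. *Ighm* was the most abundant member in 9 of the 12 libraries, and *Igha* was the most abundant in ∆*Firre* mice 8, 9 and 11. *Igha* ranked second in all 4 WT libraries. In rescue the second rank was held by *Ighg1* in mouse 1 and by *Ighg2b* in mice 2, 3 and 4.

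**Figure D2:**
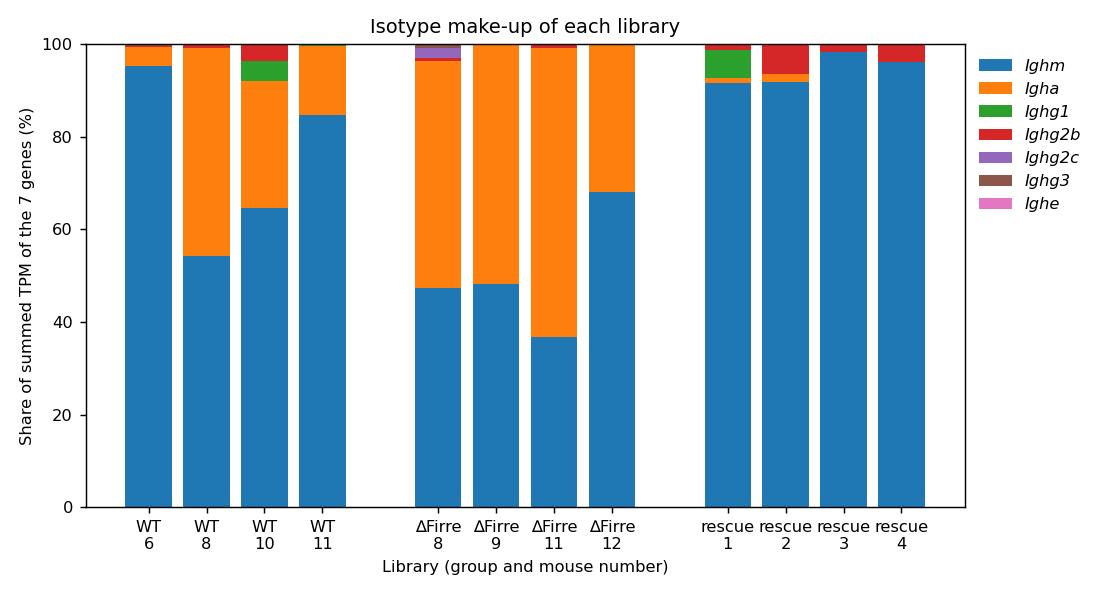
Share of each of the 7 constant genes in their summed TPM, in percent, for each library, named by group and mouse number. Ighm takes 91.7% to 98.3% in rescue, 54.2% to 95.3% in WT and 36.7% to 68.1% in ∆Firre, and Igha takes most of the rest outside rescue.

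Among the 4 gamma genes alone, *Ighg2b* led in 8 of 12 libraries, and the other leaders were spread over all groups. *Ighg3* took 62.3% of the summed gamma TPM in WT mouse 6, *Ighg1* 54.2% in WT mouse 10 and 83.3% in rescue mouse 1, and *Ighg2c* 56.5% in ∆*Firre* mouse 8. In rescue mice 2, 3 and 4 *Ighg2b* alone took 98.9%, 99.7% and 96.5%. The summed gamma TPM was 30.3, 46.8, 366 and 20.9 in WT mice 6, 8, 10 and 11, and 240.3, 25.2, 83.0 and 18.03 in ∆*Firre* mice 8, 9, 11 and 12. In rescue mice 1 to 4 it was 199.7, 179, 43.3 and 95.2. The groups overlapped, with means of 116 ± 167, 91.6 ± 103 and 129 ± 73.0, and single libraries carried the first 2 of these. Without WT mouse 10 the WT mean was 32.7, and without ∆*Firre* mouse 8 the ∆*Firre* mean was 42.1 (left-out libraries chosen after seeing the data), both below the rescue mean, and these differences were not tested.

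The first comparison asked what loss of the *Firre* locus changed. None of the 6 tested members was called between ∆*Firre* and WT, beside 0.0207% of all genes tested (3 of 14479, with 767 at an unadjusted p under 0.05). The *Igha* estimate was 2.11 ± 0.97 on the log2(TPM + 1) scale (fold change ± SE), higher in ∆*Firre* by 4.30-fold, with an unadjusted limma p of 0.0495 and an adjusted p of 0.929. That SE came from the fit over all 12 libraries, with the rescue libraries in its spread. With only these 2 groups fitted the SE was 0.70 (unadjusted limma p 0.0166, adjusted p 0.458). With limma-voom on recovered reads the estimate was 2.18 (unadjusted p 0.00072, adjusted p 0.99994). Without WT mouse 6, the lowest WT library, the limma estimate was 1.41 (unadjusted p 0.164). *Igha* was called in none of the 21 alternatives. *Ighm* differed by 0.02 ± 0.20 with an adjusted p of 1. The other estimates were -2.01 for *Ighg1*, -0.06 for *Ighg2b*, 1.66 for *Ighg2c* and 0.58 for *Ighg3*, with standard errors of 0.76 to 1.77 and adjusted p of 0.98 to 1. The sign of the *Ighg3* estimate rested on ∆*Firre* mouse 8 and WT mouse 8 (-0.55 and -0.10 without each), and that of *Ighg2b* turned without WT mouse 10, ∆*Firre* mouse 9 or ∆*Firre* mouse 12, up to 0.68. The *Ighg1* estimate was -0.39 without WT mouse 10, and the *Ighg2c* estimate was 0.20 without ∆*Firre* mouse 8 and 2.57 without ∆*Firre* mouse 9.

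Within each range of library numbers that held both genotypes, the *Igha* difference had the same direction. Both ∆*Firre* libraries lay above both WT libraries, by 1.52 on the log2(TPM + 1) scale in the lower range and by 2.69 in the higher range. The ranges were not tested singly, and a limma fit with the range as a block gave 2.11 with an unadjusted p of 0.0499 and an adjusted p of 0.987. *Ighm* differed by -0.28 in the lower range and 0.32 in the higher. *Ighg2b* (0.996 and -1.12) and *Ighg3* (4.08 and -2.93) changed direction between the ranges, *Ighg2c* (3.04 and 0.28) and *Ighg1* (-0.28 and -3.74) did not.

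The second comparison set rescue against ∆*Firre*, both without the locus. Rescue mice differed by the transgene, by rtTA and, as described, by the doxycycline diet, and these were not tested separately. Between rescue and ∆*Firre*, *Igha* and *Ighm* were called lower, 2 of 6 tested members, beside 19.3% of all genes called lower and 8.58% called higher. *Igha* fell by 8.63 ± 0.97 on the log2(TPM + 1) scale, a 396-fold change on that scale (limma, adjusted p 0.000194), and was lower in 4 of 4 rescue libraries than in any ∆*Firre* library. *Ighm* fell by 0.70 ± 0.20, or 1.62-fold (adjusted p 0.0287), also without overlap, beside 15.6% of all genes with every rescue library below every ∆*Firre* library. The median over all tested genes was -0.16. The estimates for the gamma genes were 1.09 for *Ighg1*, 1.10 for *Ighg2b*, -2.19 for *Ighg2c* and -1.84 for *Ighg3*, with adjusted p of 0.218 to 0.705. The *Ighg1* estimate became -0.75 without rescue mouse 1. *Ighg2c* was at -0.74 without ∆*Firre* mouse 8 and at -3.10 without ∆*Firre* mouse 9. *Ighg3* was at -0.71 and -2.71 without the same mice. *Ighg2b* was at 0.66 without rescue mouse 2 and 0.72 without ∆*Firre* mouse 12.

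The third comparison, rescue against WT, shares its rescue libraries with the second and its WT libraries with the first, so the 3 sets of estimates are not independent. *Igha* and *Ighm* were again the called members, 2 of 6, both lower, beside 19.4% of all genes called lower and 4.82% called higher. *Igha* fell by 6.53 ± 0.97 (92.1-fold, limma adjusted p 0.00131) and *Ighm* by 0.68 ± 0.20 (1.602-fold, adjusted p 0.0358), both without overlap, beside 14.5% of all genes with every rescue library below every WT library. The *Ighm* call was lost when the libraries were rescaled by their median ratio (-0.49, adjusted p 0.155). The median over all genes was -0.21 and moved to -0.03 with that rescaling. For the gamma genes the estimates were -0.92 for *Ighg1*, 1.04 for *Ighg2b*, -0.53 for *Ighg2c* and -1.26 for *Ighg3*, with adjusted p of 0.377 to 0.795. Without WT mouse 10 the *Ighg1* estimate was 0.70 and *Ighg2b* reached 1.78 (adjusted p 0.0986), and without WT mouse 8 *Ighg2c* was at 0.07. *Ighg1* was at -2.76 without rescue mouse 1, *Ighg2b* at 0.51 without WT mouse 6 and 0.59 without rescue mouse 2, and *Ighg3* at -0.50 without WT mouse 6.

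The rescaling also moved the balance of calls over all genes. The 1242 higher and 2801 lower genes of rescue against ∆*Firre* became 1889 and 1874, and the 698 higher and 2814 lower genes of rescue against WT became 1288 and 1258. *Igha* stayed lower in both comparisons under all 20 alternatives, from -9.44 to -7.94 against ∆*Firre* and from -7.33 to -5.83 against WT.

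**Figure D3:**
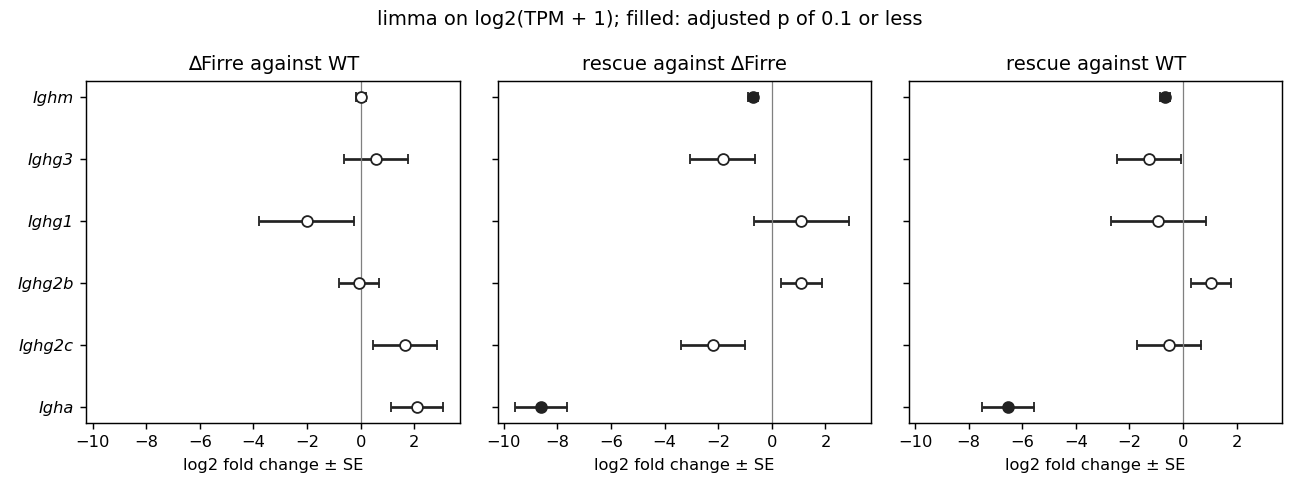
Log2 fold change ± SE (limma on log2(TPM + 1), 4 libraries per group) of the 6 tested constant genes in the 3 comparisons. Filled points have an adjusted p of 0.1 or less, and only Igha and Ighm reach it, in the 2 comparisons with rescue.

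The ratio of *Igha* to *Ighm* was formed within each library from the TPM values. In WT the ratio was 0.0432 in mouse 6, 0.830 in mouse 8, 0.424 in mouse 10 and 0.176 in mouse 11. In ∆*Firre* it was 1.04 in mouse 8, 1.07 in mouse 9, 1.70 in mouse 11 and 0.464 in mouse 12, and in rescue it was 0.0105, 0.0204, 0.000519 and 0.000780 in mice 1 to 4. Rescue lay below both other groups, and ∆*Firre* and WT overlapped through ∆*Firre* mouse 12 and WT mouse 8. For the tests the ratio was taken as the difference in log2(TPM + 1), whose mean was -2.13 in WT, -0.05 in ∆*Firre* and -7.98 in rescue.

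In exact two-sided permutation tests over the 70 assignments of 4 and 4 libraries, this log2 ratio differed by -7.93 (-8.26 with a pseudocount of 0.1) between rescue and ∆*Firre* and by -5.85 between rescue and WT. Both had p = 0.0286, the smallest this design allows, and an adjusted p of 0.0429 over the 3 comparisons in the same exact test. Between ∆*Firre* and WT it differed by 2.09, with an exact permutation p of 0.0571, adjusted 0.0571. With each library left out in turn that difference ranged from 1.29 without WT mouse 6 (exact p 0.143) to 2.71 without WT mouse 8 (exact p 0.0286, the one value under 0.05), and the exact p was also 0.143 without ∆*Firre* mouse 8, 9 or 11. Without WT mouse 8, WT mouse 10, rescue mouse 3 or rescue mouse 4 the exact p of rescue against WT became 0.0571.

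A heavy chain is secreted with light chains and, in IgA and IgM, with the joining chain, and in progenitors it first pairs with the surrogate light chain. Among 13 tested genes of these chain partners and chaperones, none was called between ∆*Firre* and WT. Against ∆*Firre*, 7 were higher and 5 lower in rescue, and against WT 6 were higher and 5 lower, beside 8.58% and 4.82% of all genes called higher and 19.3% and 19.4% called lower. The medians were 1.10 and 1.13, beside -0.16 and -0.21 over all genes. The 5 lower genes were the joining chain *Jchain* and the light-chain constant genes *Igkc*, *Iglc1*, *Iglc2* and *Iglc3*.

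*Igkc*, the kappa constant gene, was at 8709, 14169, 10192 and 11967 TPM in WT mice 6, 8, 10 and 11. It was at 22960, 32650, 30800 and 16161 TPM in ∆*Firre* mice 8, 9, 11 and 12, and at 2392, 1760, 678 and 19.95 TPM in rescue mice 1 to 4. All 3 groups were separate, as they were for *Jchain*, which ranged over 619 to 1296 TPM in WT, 1369 to 3110 in ∆*Firre* and 1.18 to 195 in rescue. Between ∆*Firre* and WT neither was called (1.16 ± 1.10 and 1.29 ± 0.98, adjusted p 0.999 and 0.986), and 0.843% of all genes had every ∆*Firre* library above every WT library. These standard errors come from the fit over all 3 groups. They include the spread of the rescue libraries, the widest on the log2 scale for both genes, and not that of ∆*Firre* and WT alone. Against ∆*Firre*, rescue was lower by -5.64 for *Igkc* (adjusted p 0.00495), by -6.23 for *Jchain* (0.00145) and by -8.03 for *Iglc1* (0.000322). The chaperone *Hspa5* (BiP), which holds unpaired heavy chains, differed by 0.04 (adjusted p 0.819).

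The 7 chain partners higher in rescue than in ∆*Firre* were genes of the pre-B and B-cell receptor and its assembly (*Vpreb1*, *Vpreb2*, *Vpreb3*, *Igll1*, *Cd79a* and *Cd79b*) and *Mzb1*, a chaperone of antibody assembly in the endoplasmic reticulum. *Mzb1* was at 80.8 to 219 TPM in rescue and 46.6 to 61.9 TPM in ∆*Firre*, higher by 1.34 (adjusted p 0.0061), opposite in direction to *Igha* and *Jchain*. The surrogate light chain genes *Vpreb1* and *Igll1*, named here after their values were seen, were at 147 to 257 and 93.4 to 210 TPM in rescue. In ∆*Firre* they were at 28.0 to 40.3 and 19.6 to 39.9 TPM, and the differences were 2.50 (adjusted p 6.9e-05) and 2.43 (adjusted p 0.000305). *Cd79a* and *Cd79b*, the signalling chains of the receptor, rose by 1.46 and 1.10 (adjusted p 0.00105 and 0.00592). *Ighm*, whose product joins these receptor chains, was lower in the same libraries.

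Genes whose level followed a member most closely were ranked by Pearson correlation of log2(TPM + 1) over the 12 libraries among 13163 named genes outside the immunoglobulin loci. For *Igha* these were *Serinc1* (r = 0.96), *Jchain* (0.95) and *Zfp266* (0.95). For *Ighm* they were *Ets1*, *Ttc39b* and *Cxcr3* (0.92 each). These coefficients include the differences between groups. Over deviations from the group means, r was 0.87, 0.75 and 0.64 for the *Igha* set and 0.86, 0.80 and 0.87 for the *Ighm* set. *Serinc1* itself varied little, from 64.8 TPM in rescue mouse 4 to 116 TPM in WT mouse 8.

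For the gamma genes the closest genes were *4930444P10Rik*, *Oas1a* and *Gm17136* for *Ighg1* (0.89, 0.88 and 0.85), and *Phpt1*, *Mrpl50* and *Scpep1* for *Ighg2b* (0.86, 0.81 and 0.81). For *Ighg2c* they were *AC132380.1*, *Mir1955* and *SNORA17* (0.88, 0.88 and 0.86), and for *Ighg3* *Mbnl3*, *Gdpd2* and *Cxcl14* (0.84, 0.84 and 0.83). Among the members themselves, *Igha* and *Ighm* had r = 0.63 over the 12 libraries and -0.29 over deviations from the group means, and *Ighm* and *Ighg2b* had -0.72 and -0.69. All of these points share library and depth, and the coefficients are given as descriptions.

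**Figure D4:**
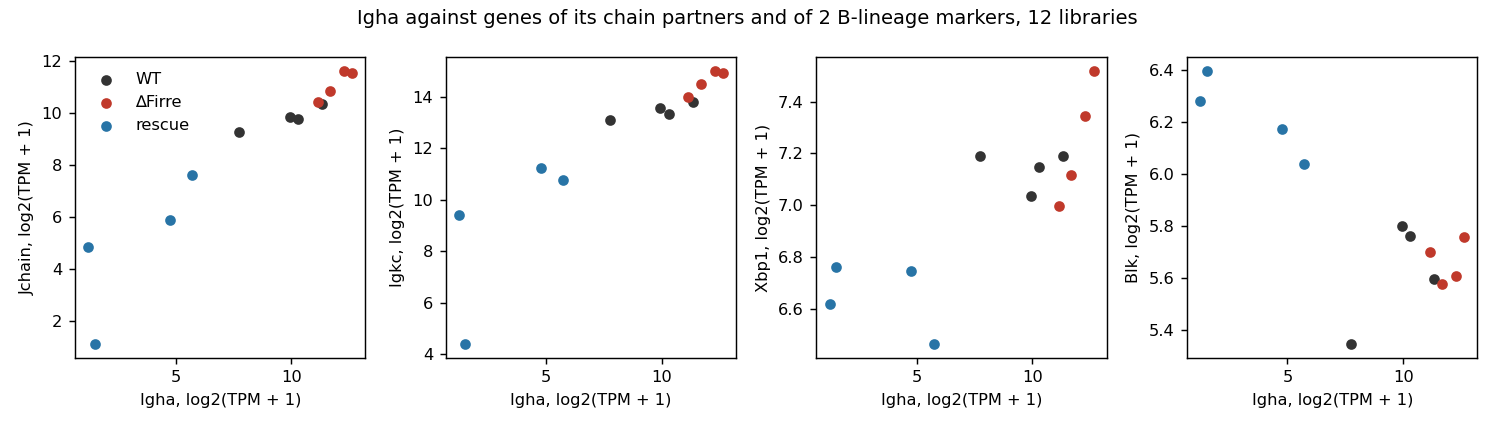
Igha on the horizontal axis against Jchain, Igkc, Xbp1 and Blk on the vertical axes, all as log2(TPM + 1), with 1 point per library coloured by group. Jchain and Igkc are lowest in the 4 rescue libraries with the lowest Igha, and Blk is highest there.

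Markers of antibody-secreting cells, which make IgA in bulk, were read beside *Igha*. Of 13 tested, 8 were lower and 2 higher in rescue than in ∆*Firre*, 6 were lower and 1 higher than in WT, and none was called between ∆*Firre* and WT. Over all genes 19.3% were lower and 8.58% higher against ∆*Firre*, and 19.4% and 4.82% against WT. The summed level ranged over 492 to 550 TPM in WT, 490 to 616 in ∆*Firre* and 436 to 540 in rescue. *Xbp1*, a transcription factor of secretory cells, fell by 0.60 in rescue against ∆*Firre* (adjusted p 0.00433), and *Tnfrsf13b* (TACI) by 0.38 (0.0608). *Sdc1* (CD138) rose by 0.68 (0.0271), and *Creld2* differed by -0.05 (0.903).

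The plasma-cell receptor *Tnfrsf17* (BCMA) is named after its values were seen. It was at 0.349 to 3.56 TPM in WT, 5.91 to 11.1 in ∆*Firre* and 0 to 1.87 in rescue, so that rescue overlapped WT, and was lower in rescue than in ∆*Firre* by -2.91 (adjusted p 0.00162). Between ∆*Firre* and WT it differed by 1.66 ± 0.47 (adjusted p 0.889). The part of these markers in the *Igha* difference was not tested. The lineage antibodies of the sort included one against B220, carried by most B-lineage cells. Whether they removed antibody-secreting cells was not tested.

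Mature B cell markers moved in both directions in rescue. Of 9 tested, 4 were higher and 2 lower in rescue than in ∆*Firre*, 3 were higher and 2 lower than in WT, and none was called between ∆*Firre* and WT, beside the same shares over all genes (8.58% and 4.82% higher, 19.3% and 19.4% lower). Their summed level was 233 to 302 TPM in WT, 222 to 262 in ∆*Firre* and 299 to 452 in rescue. The kinase *Blk* rose by 0.56 in rescue against ∆*Firre* (adjusted p 0.00708), *Cd72* by 0.50 (0.0976), and *Cd37* differed by 0.33 (0.223). *Ms4a1* (CD20) and *Cr2* (CD21), both low in every library, are named here with their values known. *Ms4a1* was at 1.24 to 3.64 TPM in WT, 2.22 to 3.12 in ∆*Firre* and 0 to 1.22 in rescue. *Cr2*, which did not pass the filter and was not tested, was at 0 in all rescue libraries and at most 0.489 TPM elsewhere. Of 11 lymphoid progenitor markers, 3 were higher and 2 lower in rescue in both comparisons. *Ly6d* rose by 1.36 against ∆*Firre* (6.0e-05), whereas *Dntt*, *Flt3* and *Il7r* differed by 0.20, 0.08 and -0.05 (adjusted p 0.258 to 0.785).

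In the machinery of class switch recombination genes moved in both directions. Of 25 tested genes, 2 were higher and 5 lower in rescue in each comparison and none was called between ∆*Firre* and WT. These counts are close to the shares called over all genes (8.58% higher and 19.3% lower against ∆*Firre*, 4.82% and 19.4% against WT), and the medians were -0.12, -0.25 and -0.08 against ∆*Firre*, against WT and for ∆*Firre* against WT. The 2 higher genes against ∆*Firre* were the histone *H2afx* (0.82, adjusted p 0.000764) and *Parp1* (0.47, 0.0377), both of DNA-break signalling. *Xrcc6* (Ku70) and *Apex1* differed by 0.21 and 0.17 (0.325 and 0.238).

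Of 8 tested receptors and transporters of antibodies, 6 were lower in rescue than in ∆*Firre* and 6 lower than in WT, and none was called between ∆*Firre* and WT. Over all genes 19.3% and 19.4% were lower. The medians were -1.63 and -1.79, beside -0.16 and -0.21 over all genes. The receptor chains for IgE on mast cells and basophils fell most among them. *Fcer1a* was at 112 to 784 TPM in WT, 180 to 323 in ∆*Firre* and 0 to 6.11 in rescue (-7.20 against ∆*Firre*, adjusted p 6.3e-05), and *Ms4a2* at 74.0 to 524, 169 to 265 and 0 to 0.128 TPM (-7.60, 2.0e-06). Their shared gamma chain *Fcer1g* differed by -0.62 (0.187) and the cytosolic antibody receptor *Trim21* fell by 0.28 (0.0622). *Ighe*, the gene of the antibody these receptors bind, was near 0 in all groups.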

How the data were processed

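Libraries of poly(A)+ RNA (CATS RNA-seq kit v2) from sorted CLPs had been sequenced as paired ends. The authors trimmed reads with cutadapt, aligned them to mm10 with TopHat2 version 2.1.1 and counted genes with featureCounts, and the deposited table holds TPM per gene and library. The gene lengths behind TPM, and the settings for strand and multi-mapping reads, are not given in the sources used here, so reads of overlapping or near-identical genes may be split uncertainly.

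Identifiers were paired with symbols from tables of gene names (33073 of 47643). TPM values were multiples of a per-library step, which gave back whole reads in 25276 of 25277 genes above 0 (tolerance 0.03 reads, 0.1 for high genes). A count model on these reads, limma-voom, called 0, 4314 and 2898 genes in ∆*Firre* against WT, rescue against ∆*Firre* and rescue against WT. The main test was limma 3.58.1 (R 4.3.3) with a mean trend on log2(TPM + 1), genes of mean TPM of at least 1, 1 fit over 12 libraries, Benjamini-Hochberg adjustment and a threshold of 0.1. It was tested on simulated data for ∆*Firre* against WT, where it recovered 199 of 200 genes changed 4-fold among 14468, with 32 unchanged genes called, and called 1 of 14475 genes when none was changed. The simulation gave every gene the same dispersion and changed only genes with a mean of at least 5 TPM. Recovery was therefore not measured for genes as variable as *Igha* (SE 0.97 in that comparison) or *Ighg1* (SE 1.77). The authors had used DESeq2 for their own tests, which was not used here because the table holds no deposited counts.

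Named genes were the members and the 3 genes nearest to each tested member by correlation. From each list came the 4 genes of highest mean TPM, plus any called in ∆*Firre* against WT. Other listed genes were named outside this rule with their values known. They include *Iglc2*, *Iglc3*, *Vpreb2*, *Vpreb3*, *Cd79a*, *Cd79b* and *Mzb1*, and those said above to be named in that way. A pair of genes of these lists is counted but not reported by name here. Members, lists and tests were chosen with earlier results of these data known. Libraries come from separate mice. Alternatives were another pseudocount (0.1), no filter or a mean of 5 TPM, median-ratio rescaling, TPM without immunoglobulin segments, 2-group fits, a replicate block, a block of library number range, each library left out and, added after seeing the data, limma-voom and shares of reads. The ratio of *Ighm* to *Ighd* was not run.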

Additional observations from a re-analysis of the deposited data

Results flagged for a closer look

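In 102 sets of 4 libraries (7 members, the *Ighm* share, the *Igha* to *Ighm* ratio, 24 other named genes and *Firre*, in each of 3 groups), 10 had a highest or lowest library far from the other 3 by Dixon's gap ratio at its 95% level. Chance flags about 1 in 20 sets of continuous values, or 5.1 here, but this rate does not hold for sets in which the other 3 libraries are at 0, as for *Fcer1a* and *Ms4a2*. All values are log2(TPM + 1). Among the constant genes, *Ighg1* was at 7.39 in rescue mouse 1 and at 0 to 0.10 in the other rescue libraries. *Ighg2c* was at 1.599 in rescue mouse 2 against 0.10 to 0.32. *Ighe* was at 1.41 in ∆*Firre* mouse 8 against 0 to 0.19, the library that also held the most *Ighg2c* and *Ighg3*.

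Among the other named genes, rescue mouse 2 was the only rescue library with reads of *Fcer1a* (2.83) and *Ms4a2* (0.17), and it had the lowest *Trim21* (5.27 against 5.42 to 5.44). *Hspa5* was at 8.97 in rescue mouse 3 against 8.69 to 8.71. *Ly6d* was at 9.10 in ∆*Firre* mouse 8 against 8.84 to 8.87, *Trim21* at 5.48 in ∆*Firre* mouse 11 against 5.72 to 5.76, and *Sdc1* at 6.54 in WT mouse 8 against 5.70 to 5.80.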

How the results depend on the processing

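Of 530 values recomputed under an alternative, 497 kept their direction and their side of the threshold (0.05 for the exact tests of the ratio) or, for counts and shares, moved little (counts within 1.5 times). Of the others, 15 changed sign, 10 counts moved further, 6 values lost a call and 2 gained one. The genes called between ∆*Firre* and WT numbered 6 without a filter, 1 with only the 2 groups fitted, 0 with limma-voom (371 at an unadjusted p under 0.05) and 1 to 5 with a library left out. Those of rescue against WT numbered 2263 with only the 2 groups fitted. *Ighm* was no longer called between rescue and WT, leaving 1 member, without a filter (-0.68, adjusted p 0.114, where more genes were tested) and after median-ratio rescaling (-0.49, adjusted p 0.155); it stayed called in 18 of 20 alternatives there and in 20 of 20 against ∆*Firre*. The log2 ratio of *Igha* to *Ighm* ranged from 1.29 to 2.71 for ∆*Firre* against WT with a library left out. It ranged from -8.73 to -7.22 for rescue against ∆*Firre* and from -6.64 to -5.13 for rescue against WT. With a library left out, members that were never called changed sign: *Ighm* (-0.12 to 0.18), *Ighg2b* (-0.60 to 0.68) and *Ighg3* (-0.55 to 1.45) between ∆*Firre* and WT, *Ighg1* between rescue and ∆*Firre* (-0.75 to 1.71), and *Ighg1* (-2.76 to 0.70) and *Ighg2c* (-0.89 to 0.074) between rescue and WT. *Ighg2b* between ∆*Firre* and WT was 0.0048 after rescaling, and *Ighg1* between rescue and ∆*Firre* was -0.43 with limma-voom. The cause of these changes was not tested.

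WT and ∆*Firre* share the mouse numbers 8 and 11 in the labels. The deviations of same-numbered libraries from their group means correlated at -0.03 and -0.04, and those of the other pairs at -0.077 to 0.177. This gave no sign that the numbers pair the mice, but it cannot exclude a pairing that leaves no such correlation. A replicate block on the mouse numbers gave 3, 2787 and 2113 called genes in ∆*Firre* against WT, rescue against ∆*Firre* and rescue against WT, and *Ighg2c* between rescue and WT became 0.74. Depth limits the low members: 1 read was worth more TPM in the shallower WT libraries than in rescue.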
